A study of Mus musculus with 8 samples.

Results

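The Krüppel-like factors (KLFs) described here are Klf2, Klf3, Klf4, Klf6, Klf7, Klf9, Klf10, Klf12 and Klf13, 9 genes of the 25124 in the deposited tables, chosen by name and found by gene symbol in each table. The study sorted CD4 T cells from the spleens of mice that carry a GFP reporter of KLF2 and an RFP reporter of FOXP3. Cells negative for FOXP3 with high CD44 were split into KLF2+ and KLF2- populations, and each was kept for 48 h either unstimulated or with anti-CD3 at 2.5 microgram/mL plus anti-CD28 at 1.25 microgram/mL. Antibodies to CD3 and CD28 stand in for the antigen and costimulatory signals that activate a T cell. RNA of 8 libraries, 2 in each of the 4 groups, was sequenced after a stranded low-input mammalian protocol. The KLF2+ libraries are numbered 1 and 2 and the KLF2- libraries 3 and 4, with and without stimulus. All groups share both reporter alleles, the FOXP3-negative gate and the high CD44 gate; the ages of the mice, and whether libraries of a group came from separate animals or cultures, are not given in the sources used here. The p-values therefore measure only the spread between these libraries, which may be technical.

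KLFs are zinc-finger transcription factors that bind GC-rich and CACCC sequences in promoters and enhancers. KLF2 is a factor of resting T cells: it supports the quiescent state and the expression of receptors for lymph node entry and exit, and signals through the antigen receptor lower it. KLF3 and KLF12 recruit CtBP corepressors, KLF9, KLF10 and KLF13 recruit the SIN3A corepressor, and KLF2, KLF4, KLF6 and KLF7 are mostly described as activators.

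All 9 genes lie on different chromosomes. In mm10, Klf2 is at chr8:72319062-72321654 (plus strand), Klf3 at chr5:64803523-64830129 (plus), Klf6 at chr13:5861489-5870393 (plus) and Klf10 at chr15:38294406-38300711 (minus). Klf12 is the longest, at chr14:99870640-100149796 (minus). Klf4 is at chr4:55527137-55532475 (minus), Klf7 at chr1:64035671-64121389 (minus), Klf9 at chr19:23141226-23168128 (plus) and Klf13 at chr7:63886351-63938915 (minus). Exons of Klf3 overlap those of Gm20033, and exons of Klf7 overlap those of Gm13748 and Gm26649, on the opposite strand. Whether strand was used in counting is not given in the sources used here, so part of the Klf3 and Klf7 reads may belong to those transcripts.

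The RefSeq promoter table (GRCm38.p6) held 8 of the 9 members. The 250 bases before the annotated start are shown for Klf2 and Klf3, the members called lower in every fit of the KLF2+ response, and for Klf9, the member with a FOXO match. They stand at chr8:72318812-72319061, chr5:64803271-64803520 and chr19:23140976-23141225, all on the plus strand. Capitals mark letters that match a MEF2 motif (CTA, any 4 bases, TAG), a FOXO motif (GTAAACA) or a CACCC box (CACCC), on either strand.
Klf2: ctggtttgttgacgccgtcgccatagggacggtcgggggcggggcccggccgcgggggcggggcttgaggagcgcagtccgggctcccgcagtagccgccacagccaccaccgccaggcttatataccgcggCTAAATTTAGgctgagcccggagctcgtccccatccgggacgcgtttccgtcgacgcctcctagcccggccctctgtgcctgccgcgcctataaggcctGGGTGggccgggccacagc
Klf3: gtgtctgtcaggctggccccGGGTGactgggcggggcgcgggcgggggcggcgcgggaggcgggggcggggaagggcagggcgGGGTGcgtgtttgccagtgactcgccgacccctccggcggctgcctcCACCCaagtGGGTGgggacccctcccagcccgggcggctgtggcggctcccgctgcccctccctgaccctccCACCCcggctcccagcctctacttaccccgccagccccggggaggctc
Klf9: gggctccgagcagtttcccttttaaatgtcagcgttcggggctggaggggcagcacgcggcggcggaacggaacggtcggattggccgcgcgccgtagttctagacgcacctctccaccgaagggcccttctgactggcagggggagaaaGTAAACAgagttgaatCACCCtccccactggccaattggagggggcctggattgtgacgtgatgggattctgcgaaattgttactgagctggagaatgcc
The Klf2 promoter held the MEF2 letters at base -118 from the start and 1 CACCC box, and no other member promoter held the MEF2 letters, which stand in 3.202% of the 32851 promoters of the same length. The Klf9 promoter held the FOXO letters at base -100, as 1 of 8 member promoters and 3.166% of all promoters. CACCC boxes stood in 6 of 8 member promoters against 52.014% of all, with 5 of the 12 matches in Klf3 and none in Klf4 or Klf6. The GC box GGGCGG, not capitalised, stood in 6 of 8 against 32.742% of all. GC boxes at base -172 of Klf3 and base -27 of Klf13 share 1 base with a CACCC box, and a match is a run of letters, not a measured binding site.

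The 8 libraries held 2987038 to 36620465 reads in exons, and exons held from 7.96% (KLF2- stimulated replicate 4) to 80.3% (KLF2+ stimulated replicate 2) of the aligned tags. Reads in olfactory and vomeronasal receptor exons, genes that T cells are not known to express, gave a background density that would account for 0.401% to 20.1% of exon reads, with the KLF2+ stimulated libraries lowest and the KLF2- stimulated libraries highest. This order follows the groups, so each comparison below is also given after subtracting that background and, where the direction differed, after scaling on genes of at least 50 CPM (counts relative to library size). The background-subtracted fit was scaled on such abundant genes too. Both alternatives share that scaling and are not separate checks, and their shift from the default is not that of background alone. Of the T cell markers 8 of 10 were in the tables, and their summed level was 2340 to 6711 CPM in all 8 libraries. Transcripts of myeloid cells were also present: 15 markers summed to 1010 and 1812 CPM in the KLF2+ unstimulated libraries and to 66.4 to 125 CPM in the other 6, and their defining genes Lyz2, Csf1r, Adgre1 and Cd14 were counted in every library. Of the other markers, Clec4n was not counted in the KLF2- unstimulated libraries, nor C1qb in KLF2- stimulated replicate 4. S100a8 was not counted in KLF2- unstimulated replicate 3 or in either KLF2- stimulated library. After background subtraction Cd14, C1qb, Clec4n, Mpeg1 and S100a9 were at 0 in all 4 KLF2- libraries, and Adgre1 in KLF2- stimulated replicate 4. Markers of B cells summed to 65.5 to 217 CPM, of NK and CD8 cells to 52.1 to 117 CPM and of erythroid cells and platelets to 21.4 to 145 CPM. The defining markers Ms4a1, Cd79a, Ncr1, Cd8a and Pf4 were counted in every library; after background subtraction Cd79a was at 0 in KLF2- stimulated replicate 3, and Cd8a did not pass the filter. In bulk RNA, fewer cells of a type and less RNA per cell cannot be told apart.

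Levels are given first, in TPM, the deposited unit that corrects for gene length. Summed over the 9 members, the level was 488.7 and 475.7 TPM in KLF2+ unstimulated, 138.2 and 164.7 TPM in KLF2+ stimulated, 298.5 and 337.5 TPM in KLF2- unstimulated, and 254.2 and 362.3 TPM in KLF2- stimulated libraries. The KLF2+ unstimulated libraries were highest and the KLF2+ stimulated ones lowest, each apart from all others. The sum holds Klf2, by whose reporter the cells were sorted. The high KLF2+ unstimulated sums and the Klf2 shares between populations thus in part follow the sort and are no finding about the family. Klf2, Klf3 and Klf6 together made up 68.8% to 88.8% of the sum in every library. Klf2 alone made up 41.2% and 38.4% of it in KLF2+ unstimulated and 24.0% and 29.5% in KLF2+ stimulated libraries, against 10.1% and 13.8% in KLF2- unstimulated and 15.9% and 21.9% in KLF2- stimulated ones.

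**Figure D1:**
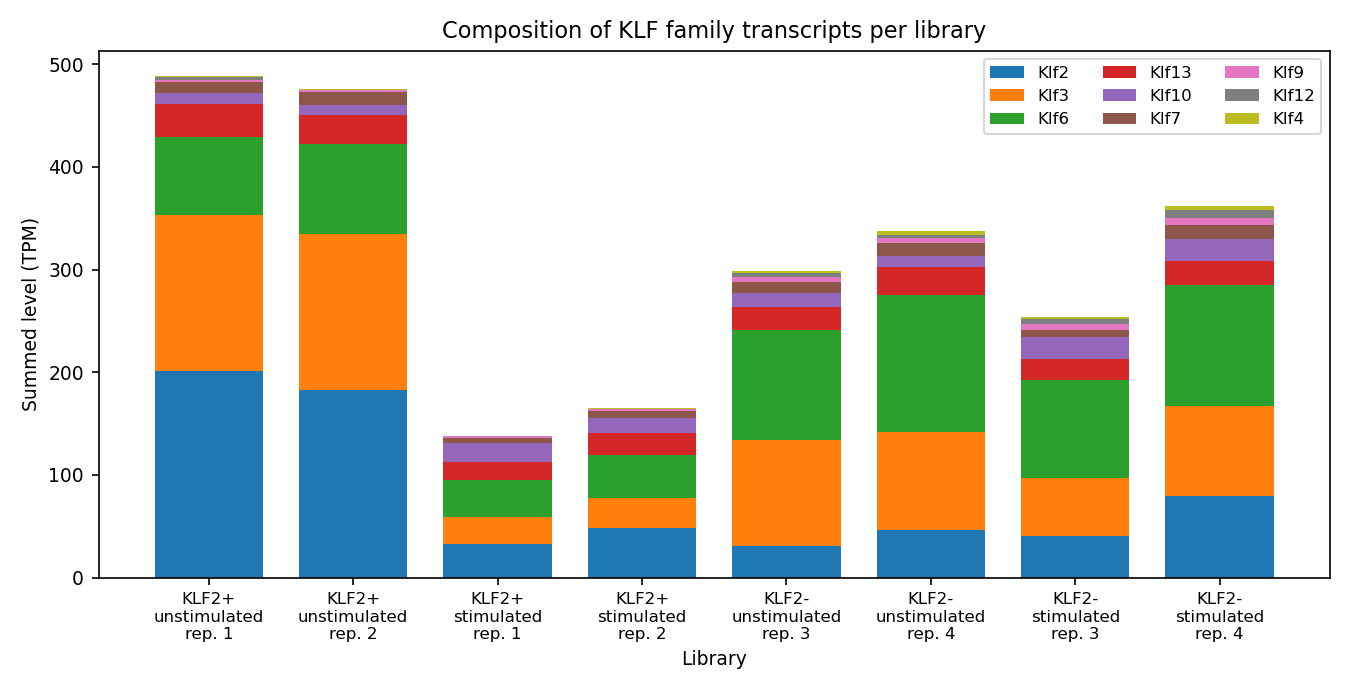
Stacked bars show the summed level of the 9 KLF members in TPM (y axis, from 0) for each of the 8 libraries (x axis), with 1 colour per gene. The KLF2+ unstimulated bars reach 488.7 and 475.7 TPM, and Klf2 (lowest segment) takes the largest share in those libraries.

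The order of the mean levels differed between the groups, and the place of Klf2 between the populations in part follows the sort. In KLF2+ unstimulated cells it was Klf2 (191.9 ± 12.9 TPM, SD, n = 2), Klf3 (151.7 ± 0.44), Klf6 (82.0 ± 8.3) and Klf13 (30.6 ± 2.5), then Klf7 and Klf10, and last Klf9, Klf12 and Klf4. The libraries of Klf7 and Klf10 overlapped there, as did those of Klf9 with Klf12 and of Klf12 with Klf4. In KLF2- unstimulated cells Klf6 came first (119.8 ± 18.4 TPM, SD, n = 2), then Klf3 (99.8 ± 5.9), Klf2 (38.4 ± 11.5) and Klf13 (24.9 ± 3.4), and the libraries of Klf10 and Klf7 overlapped, as did those of Klf12 and Klf4. In KLF2+ stimulated cells Klf2 (40.9 ± 11.0 TPM, SD, n = 2) and Klf6 (39.1 ± 4.4) overlapped, with Klf3 (27.4 ± 2.2) below them, Klf13 overlapped Klf10, Klf7 and Klf9 followed, and Klf4 overlapped Klf12. In KLF2- stimulated cells Klf6 led (106.5 ± 16.1 TPM, SD, n = 2), Klf3 and Klf2 overlapped, Klf13 and Klf10 overlapped, and each of Klf7, Klf9, Klf12 and Klf4 overlapped the next. The ratio of Klf2 to Klf6 in TPM, which no scaling between libraries touches, was 2.64 and 2.08 in KLF2+ unstimulated, 0.918 and 1.15 in KLF2+ stimulated, 0.284 and 0.351 in KLF2- unstimulated and 0.425 and 0.673 in KLF2- stimulated libraries.

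**Figure D2:**
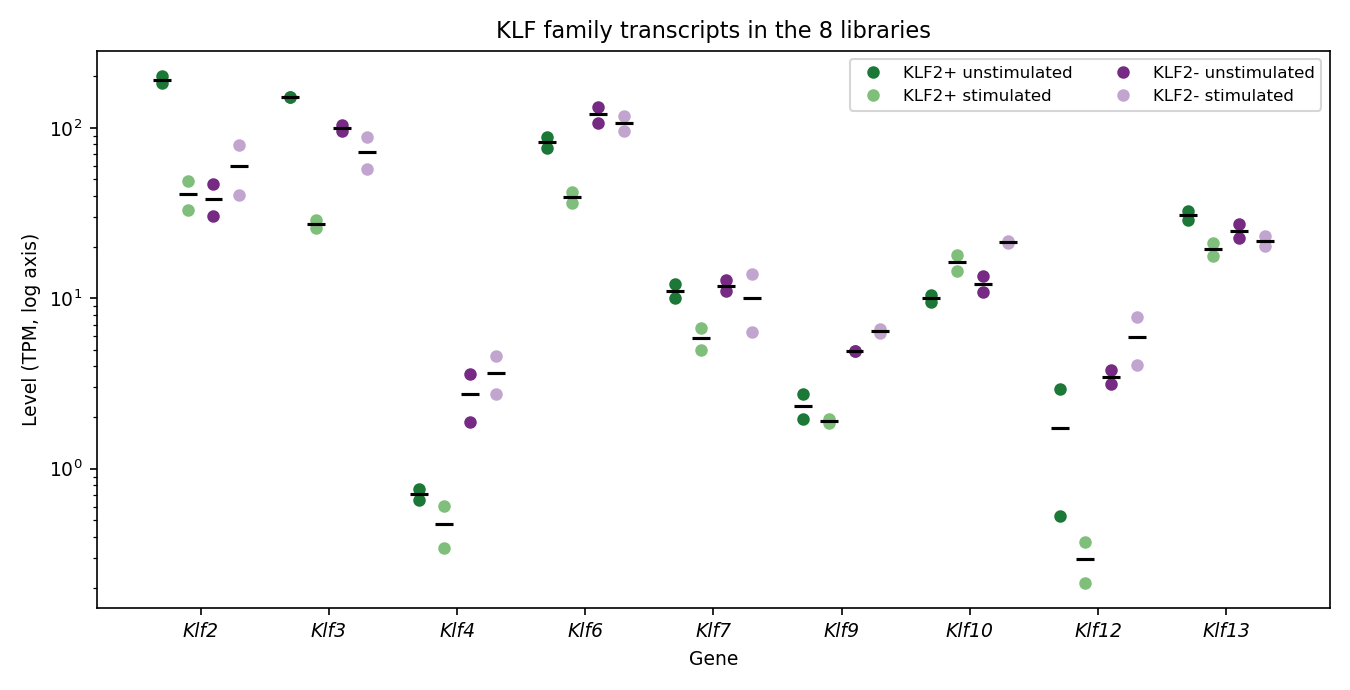
Levels of the 9 members (x axis) in TPM (y axis, log scale); each point is a library, coloured by its group, and each bar is the mean of 2 libraries. Klf2 and Klf3 lie far lower in stimulated than in unstimulated KLF2+ libraries, while Klf10 lies higher.

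Low members sat close to the background. The reads expected from background were 9.87% to 153% of those counted for Klf4 and 27.8% to 74.8% for Klf12, so the TPM values of these genes in part count background. For Klf2, Klf3 and Klf6 the background was at most 4.87% of the reads in any library. For Klf7, Klf9, Klf10 and Klf13 it reached 31.1%, 58.6%, 17.2% and 15.7% in the highest library.

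**Figure D3:**
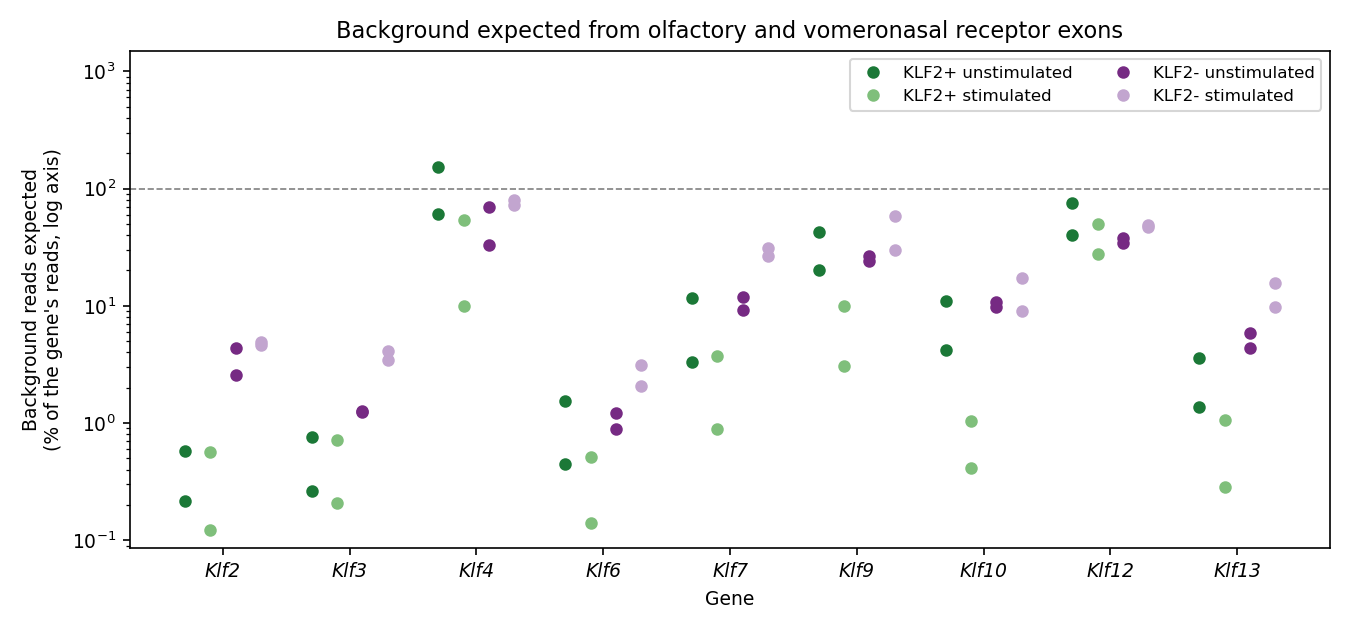
Background reads expected for each member (x axis), as a percentage of the reads counted for it (y axis, log scale; the dashed line is 100%); each point is a library, coloured by group. Klf4 and Klf12 lie near the line, Klf2, Klf3 and Klf6 far below it.

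The first comparison asked how KLF2+ and KLF2- cells differed without stimulus. Klf2, by whose reporter the cells were sorted, was counted at 201 and 183 TPM in KLF2+ and 30.3 and 46.5 TPM in KLF2- libraries, so both KLF2+ libraries lay above both KLF2- libraries. This follows the sort and checks the labels; it is no finding between the populations. The summed myeloid markers were also higher in these KLF2+ libraries (1010 and 1812 CPM against 84.5 and 88.6 CPM), and their part in the Klf2 and Klf3 values was not tested. Its log2 fold change was 2.69 ± 0.33 (SE, adjusted p = 0.00455 in the edgeR quasi-likelihood test after Benjamini-Hochberg correction, as for every edgeR adjusted p below). The call was lost without KLF2+ unstimulated replicate 2 (log2 fold change 2.52, edgeR adjusted p = 0.061) and without KLF2- unstimulated replicate 3 (2.39, adjusted p = 0.0862).

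Klf2 was the only member called between the unstimulated populations: 1 of 9 was higher and 0 lower, where 2.32% of the 19146 genes tested were called, 1.07% higher and 1.25% lower. The members' median log2 fold change was 0.09 and that of all genes -0.11. After background subtraction, Klf2 was again the only member called (log2 fold change 2.40), where 4.02% of all genes were.

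Klf3, a repressor that acts through CtBP, was at 152 and 151 TPM in KLF2+ and at 104 and 95.6 TPM in KLF2- unstimulated libraries. The KLF2+ libraries were higher and the groups did not overlap, but the edgeR log2 fold change of 0.99 ± 0.23 (SE) did not pass (adjusted p = 0.0596); it passed in 6 of 16 alternatives. Klf13, known as an activator of chemokine transcription in T cells, was at 32.4 and 28.8 TPM against 22.5 and 27.3 TPM, without overlap, and was not called (0.66 ± 0.21, SE; edgeR adjusted p = 0.149). Klf6, a broadly expressed immediate-early member, was at 76.2 and 87.9 TPM in KLF2+ and 107 and 133 TPM in KLF2- unstimulated libraries. Its KLF2- libraries were the higher ones, yet the difference was not called (-0.15 ± 0.26, SE; edgeR adjusted p = 0.760).

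Klf9, a stress- and hormone-responsive member, was at 2.73 and 1.96 TPM in KLF2+ and 4.88 and 4.90 TPM in KLF2- unstimulated libraries, lower in KLF2+ libraries without overlap. The difference was not called (-0.71 ± 0.30, SE; edgeR adjusted p = 0.238). Klf4, an activator that restrains proliferation of T cells, was at 0.757 and 0.657 TPM against 1.87 and 3.60 TPM, lower in KLF2+ libraries, and was not called (-1.59 ± 0.57, SE; edgeR adjusted p = 0.190), with background making up much of its reads. Klf7 (0.30), Klf10 (0.09) and Klf12 (-0.81) were not called either; the values of Klf7 and Klf10 were below 0 in 6 and 7 of the 16 alternatives.

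After stimulus, the same comparison of populations depended on how the libraries were scaled. With the default scaling, edgeR called 5 of 9 members, 3 higher in KLF2+ (Klf2, Klf10, Klf13) and 2 lower (Klf4, Klf12), where 75.2% of all genes were called, 35.5% higher and 39.7% lower. With scaling on genes of at least 50 CPM it called 5 of 9, 0 higher and 5 lower (Klf3, Klf4, Klf6, Klf9, Klf12), where 70.2% of all genes were called, 11.9% higher and 58.3% lower. After background subtraction it called 3 of 9, 0 higher and 3 lower (Klf3, Klf6, Klf12), where 54.5% of all genes were called, 16.0% higher and 38.6% lower. The members' median was 0.06 by default and -0.91 after background subtraction, and the scaling on abundant genes moved the median of all genes from -0.19 to -1.39. The share called among the members stood below the share among all genes in each of these fits.

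Klf12, a CtBP-binding repressor, was at 0.372 and 0.215 TPM in KLF2+ and 4.06 and 7.80 TPM in KLF2- stimulated libraries. Both KLF2+ libraries were far below both KLF2- libraries, and the edgeR log2 fold change was -2.88 ± 0.64 (SE, adjusted p = 0.00299). It was the only member called in the same direction in all 16 alternatives, at -4.11 to -2.37, and it was -4.08 after background subtraction. Background made up 27.8% to 49.9% of its reads in the stimulated libraries of both populations; the subtracted fit is the value that bears on this.

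Klf2 was at 33.1 and 48.6 TPM in KLF2+ and 40.5 and 79.3 TPM in KLF2- stimulated libraries, with the groups overlapping. The default scaling gave 0.93 ± 0.32 (SE, edgeR adjusted p = 0.0236), while scaling on abundant genes gave -0.30 and background subtraction -0.39, neither called. The default value was 0.61 without KLF2+ stimulated replicate 2 and 0.62 without KLF2- stimulated replicate 3, with the call lost (edgeR adjusted p = 0.179 and 0.135). Klf10, a TGF-beta-inducible member, behaved likewise: 18.0 and 14.4 TPM against 21.6 and 21.2 TPM, lower in KLF2+ libraries, with 1.03 ± 0.23 (SE, edgeR adjusted p = 0.00285) by default and -0.15 and -0.10 by the same alternatives. Klf13 was at 17.7 and 21.0 TPM against 20.3 and 23.3 TPM, overlapping, with 1.27 ± 0.22 (SE, edgeR adjusted p = 0.000804) by default but 0.08 and 0.13 by the others.

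For Klf3 and Klf6 the default scaling gave 0.06 and 0.00, and both alternatives, which share a scaling, gave called decreases. Klf3 was at 25.9 and 29.0 TPM in KLF2+ and 56.9 and 88.2 TPM in KLF2- stimulated libraries, with no overlap, and its log2 fold change was -1.16 with scaling on abundant genes and -1.25 after background subtraction (edgeR adjusted p = 0.00200 and 0.00439). Klf6 was at 36.0 and 42.2 TPM against 95.2 and 118 TPM, again with no overlap, and its values were -1.20 and -1.31 (edgeR adjusted p = 0.00134 and 0.00264). Klf4 was at 0.343 and 0.604 TPM against 2.73 and 4.56 TPM (-1.46 ± 0.57, SE; edgeR adjusted p = 0.0397), and the call was lost in 6 of 16 alternatives. These were background subtraction (-1.16, edgeR adjusted p = 0.498) and leaving out KLF2+ stimulated replicate 1 (adjusted p = 0.158), KLF2- stimulated replicate 3 (0.0567) or 4 (0.164), or KLF2- unstimulated replicate 3 (0.0561) or 4 (0.0631). Klf9 at 1.85 and 1.96 TPM against 6.64 and 6.23 TPM was not called by default (-0.33) and was called with scaling on abundant genes (-1.51). Klf7, a member known from neuronal growth, was not called in any of these fits (0.73 by default, -0.51 with scaling on abundant genes).

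**Figure D4:**
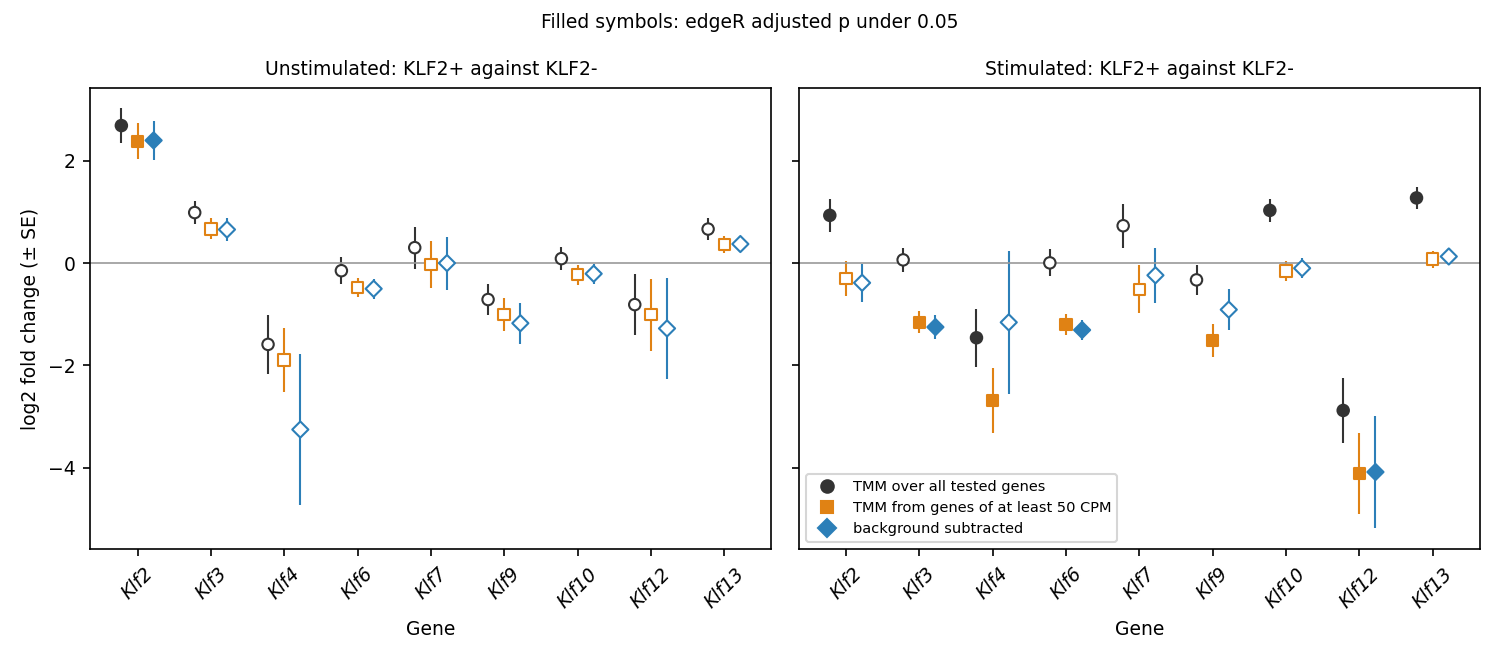
Log2 fold changes of KLF2+ against KLF2- cells (y axis, ± SE) for the 9 members (x axis), unstimulated on the left and stimulated on the right, by edgeR in 3 fits. Filled symbols passed the adjusted p. The background-subtracted fit shares the scaling on abundant genes. On the right, the default values lie above those of the other fits for all members except Klf4, whose background-subtracted value is higher.

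In KLF2+ cells kept with anti-CD3 and anti-CD28, Klf2 and Klf3 fell and Klf10 rose against unstimulated cells. These were 2 members lower and 1 higher of 9, where 37.1% of all genes were called, 19.7% higher and 17.4% lower. The members' median log2 change was -0.28 and that of all genes -0.25. After background subtraction 4 of 9 were called, 1 higher and 3 lower with Klf6 added, where 29.1% of all genes were, 12.7% higher and 16.4% lower. Scaling on abundant genes called 6 of 9, 1 higher and 5 lower, where 40.9% of all genes were called, 11.3% higher and 29.6% lower; it moved the median of all genes from -0.25 to -0.75.

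Klf2 went from 201 and 183 TPM to 33.1 and 48.6 TPM in KLF2+ cells, with every stimulated library below every unstimulated one. It fell by 1.55 ± 0.32 on the log2 scale (SE, edgeR adjusted p = 0.00760). All 17 alternatives called it lower, at -2.25 to -1.30. Klf3 went from 152 and 151 TPM to 25.9 and 29.0 TPM. The groups were far apart with little spread within either, and Klf3 fell by 1.80 ± 0.23 on the log2 scale (SE, edgeR adjusted p = 0.00123), called lower in all 17 alternatives at -2.47 to -1.53.

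Klf10 went from 10.5 and 9.49 TPM to 18.0 and 14.4 TPM, with both stimulated libraries above both unstimulated ones. It rose by 1.37 ± 0.22 on the log2 scale (SE, edgeR adjusted p = 0.00319), and by 0.88 with scaling on abundant genes and 0.94 after background subtraction. The call stood in 16 of 17 alternatives; in limma on log2(TPM + 1) without a filter the adjusted p was 0.0513.

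Klf6 went from 76.2 and 87.9 TPM to 36.0 and 42.2 TPM without overlap. It was not called by default (-0.42 ± 0.26, SE; edgeR adjusted p = 0.211), but was with scaling on abundant genes (-0.89) and after background subtraction (-0.92). Klf12 was at 2.92 and 0.530 TPM before and 0.372 and 0.215 TPM after, without overlap but with unstimulated libraries far apart, and was not called (-1.73 ± 0.62, SE; edgeR adjusted p = 0.0520). It was called lower in 6 of 17 alternatives, scaling on abundant genes among them (-2.33, edgeR adjusted p = 0.0368). The value was -0.44 without KLF2+ unstimulated replicate 1 and -2.41, called, without replicate 2. Klf13 was at 32.4 and 28.8 TPM before and 17.7 and 21.0 TPM after, without overlap, with a log2 change of 0.02 by default, -0.48 with scaling on abundant genes (called, edgeR adjusted p = 0.0454) and -0.49 after background subtraction (not called, 0.0566); 4 of 17 alternatives called it lower. Klf7 (10.1 and 12.0 TPM to 4.95 and 6.71 TPM, log2 change -0.28), Klf9 (0.41) and Klf4 (0.13) were not called by default or in any of the 17 alternatives. With scaling on abundant genes the sign changed for Klf9 (-0.10) and Klf4 (-0.36).

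The summed myeloid markers moved with this comparison: they went from 1010 and 1812 CPM to 78.1 and 125 CPM, and edgeR called 14 of 15 lower. Lyz2 went from 806 and 1142 TPM to 19.9 and 36.3 TPM. Macrophages also express KLF genes, Klf2, Klf4 and Klf6 among them, and the part of the myeloid transcripts in the Klf changes was not tested.

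In KLF2- cells no member was called after stimulus. By edgeR 0 of 9 passed, as did 0% of all genes, with 0% higher and 0% lower, and with 2 members (Klf3, Klf13) and 2802 genes at an unadjusted p under 0.05. DESeq2 called 0 of 9 members and 0.387% of all genes, and after background subtraction edgeR called 0 of 9 and 0% of all genes. The members' median log2 change was 0.00 and that of all genes 0.06.

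Klf2 was at 30.3 and 46.5 TPM before and 40.5 and 79.3 TPM after stimulus in these cells, with overlapping groups and a log2 change of 0.20 ± 0.32 (SE, edgeR adjusted p = 0.724). Klf3 was at 104 and 95.6 TPM before and 56.9 and 88.2 TPM after, with both stimulated libraries lower (-0.88 ± 0.23, SE; edgeR adjusted p = 0.268). Klf10 was at 13.4 and 10.9 TPM before and 21.6 and 21.2 TPM after, with both stimulated libraries higher (0.43 ± 0.23, SE; edgeR adjusted p = 0.392). Klf6 (107 and 133 TPM to 95.2 and 118 TPM; -0.57), Klf7 (11.0 and 12.8 TPM to 6.34 and 13.8 TPM; -0.70) and Klf13 (-0.59) overlapped between the conditions, and none was called. Klf9 (4.88 and 4.90 TPM to 6.64 and 6.23 TPM; 0.02) and Klf12 (3.80 and 3.15 TPM to 4.06 and 7.80 TPM; 0.34) were higher in both stimulated libraries in TPM, and neither these nor Klf4 (0.00) were called. By default the values of Klf3, Klf4, Klf6, Klf7, Klf9 and Klf10 had the sign they had in KLF2+ cells. Those of Klf2, Klf12 and Klf13 had the opposite sign.

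**Figure D5:**
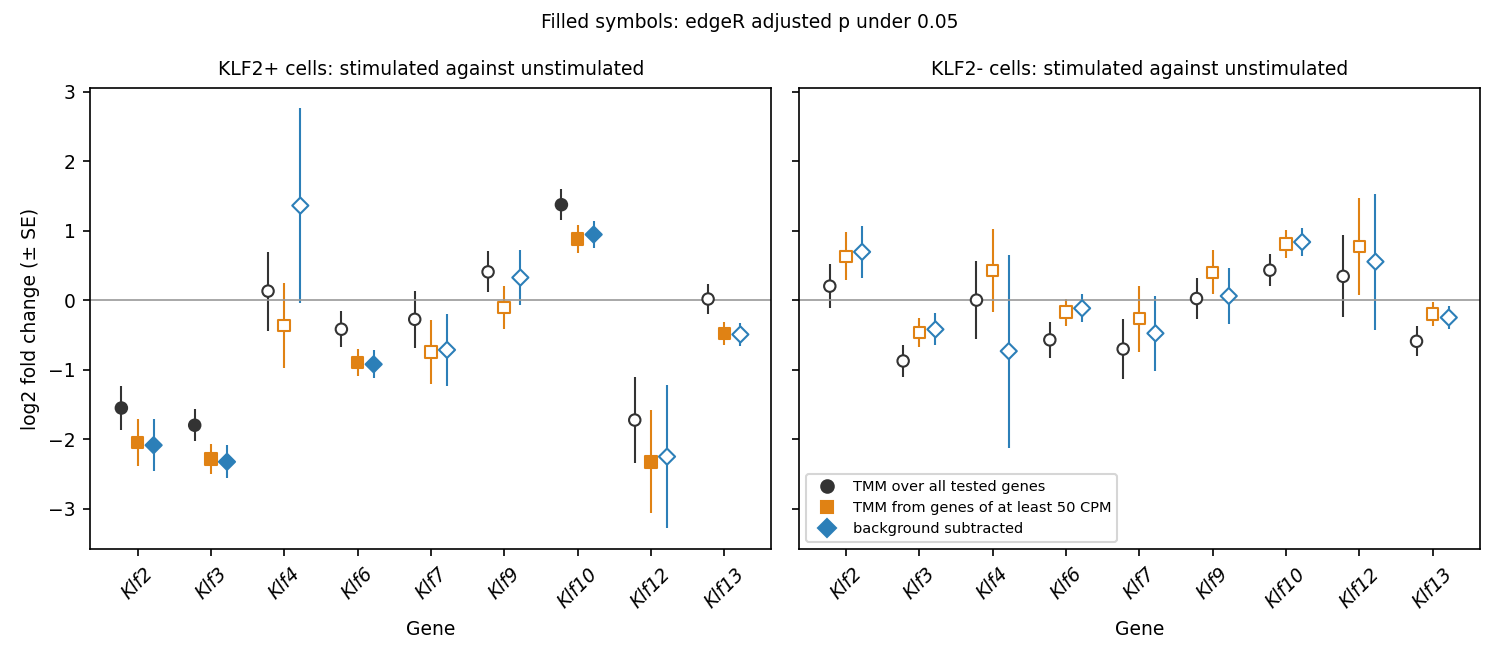
Log2 fold changes of stimulated against unstimulated cells (y axis, ± SE) for the 9 members (x axis), KLF2+ on the left and KLF2- on the right, by edgeR in 3 fits. Filled symbols passed the adjusted p. The background-subtracted fit shares the scaling on abundant genes. Klf2, Klf3 and Klf10 are filled in all 3 fits on the left, and no symbol is filled on the right.

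The difference between both responses was tested as an interaction in edgeR, KLF2+ minus KLF2-. It called 3 of 9 members, 2 lower (Klf2, Klf3) and 1 higher (Klf10), where 35.8% of all genes were called, 20.3% higher and 15.5% lower. After background subtraction it called 2 of 9, 0 higher and 2 lower, where 11.8% of all genes were, 3.58% higher and 8.24% lower. The members' median difference was 0.15 and that of all genes -0.09.

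Klf2 differed by -1.75 ± 0.45 on the log2 scale (SE, edgeR adjusted p = 0.0236), with -2.68 by scaling on abundant genes and -2.78 after background subtraction. For Klf2 this difference holds the unstimulated levels, which the sort set apart, so it is no finding free of the sort. Klf3 differed by -0.92 ± 0.32 (SE, edgeR adjusted p = 0.0485), with -1.83 and -1.91 by the same alternatives. Klf10 differed by 0.94 ± 0.32 (SE, edgeR adjusted p = 0.0446), but by only 0.07 and 0.11 under those alternatives and by -0.13 in limma, none of them called. Klf12 (-2.07 ± 0.85, SE; edgeR adjusted p = 0.0770) passed in 6 of 16 alternatives, and was -0.81 without KLF2+ unstimulated replicate 1 and -2.78, called, without replicate 2. Klf6 differed by 0.15 by default and -0.72 with scaling on abundant genes, neither called. In 2 of 16 alternatives, limma on log2(TPM + 1) and log2(TPM + 0.1), it was called lower (-0.88 and -0.90, limma adjusted p = 0.0332 and 0.0313). Klf13 (0.61), Klf7 (0.43), Klf9 (0.38) and Klf4 (0.13) were called in no fit. With scaling on abundant genes these stood at -0.28, -0.48, -0.50 and -0.79. The summed myeloid markers were, like Klf2, highest in the KLF2+ unstimulated libraries (1010 and 1812 CPM, against 66.4 to 125 CPM in the other 6), and their part was not tested. Leaving out 1 library left 1 in its group. In these fits Klf2 ranged from -2.13 to -1.36, Klf3 from -1.19 to -0.68 and Klf10 from 0.74 to 1.11. Member calls were lost in some of them, and those without any member called also called fewer of all genes.

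Of the other genes of the KLF and SP family, 17 were in the tables and 13 passed the filter on low counts. In the KLF2+ response edgeR called 1 of these 13 higher and 2 lower, beside 19.7% and 17.4% of all genes. Klf11, a TGF-beta-inducible SIN3A-binding repressor close to Klf10, went from 7.42 and 3.65 TPM to 1.39 and 1.35 TPM and fell by 1.26 ± 0.32 on the log2 scale (SE, edgeR adjusted p = 0.0167), the opposite direction to Klf10. Klf14 fell by 2.46 ± 0.73 (SE, edgeR adjusted p = 0.0289), a call lost after background subtraction (-3.48, adjusted p = 0.204), and Klf1, the erythroid member, rose by 2.99 ± 0.73 (SE, adjusted p = 0.0146) from 0.46 and 0.197 TPM to 1.86 and 1.22 TPM. Between stimulated populations 2 of 13 were higher in KLF2+ cells and 6 lower, beside 35.5% and 39.7% of all genes. Sp8 stood at -4.55 ± 0.69, Klf14 at -3.96 ± 0.75, Klf11 at -1.72 ± 0.33 and Klf1 at 3.57 ± 0.85 in log2 (SE). After background subtraction 0 of 10 were higher and 5 lower, Klf14 and Klf11 among them, beside 16.0% and 38.6% of all genes. Sp8 was then not called (-6.89, edgeR adjusted p = 0.0649). With stimulus, the KLF2+ replicates kept 0 CPM of Sp8, KLF2- replicate 3 kept 2.145 and replicate 4 kept 0. For Klf14 these levels were 0, 2.145 and 0.417 CPM, so the large values of Sp8 and Klf14 rest on few reads near background. None of the 13 was called between unstimulated populations or in the KLF2- response.

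Genes that act upstream of KLF2, namely the FOXO factors, the MEK5-ERK5 kinases, the MEF2 factors and ubiquitin ligases of the KLF2 protein, numbered 11. None was called in the KLF2+ response by default, with a median log2 change of 0.11, and 4 of 10 tested were lower after background subtraction, where 16.4% of all genes were. Foxo1, which activates Klf2 transcription, changed by -0.58 ± 0.23 (SE, edgeR adjusted p = 0.0705) by default and was called at -1.11 after background subtraction. Between stimulated populations 6 of 11 were higher in KLF2+ cells by default, led by Map2k5 (1.16 ± 0.22 in log2, SE), the ERK5 gene Mapk7 (1.001 ± 0.25), Map3k3 (0.64 ± 0.20) and Wwp1 (0.63 ± 0.21), where 35.5% of all genes were higher. After background subtraction 6 of 10 were lower, where 38.6% of all genes were, so no direction holds for this list.

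Genes linked to KLF2 in T cell trafficking and cell cycle control numbered 8, a list that holds KLF2 targets known from other T cell work. Between unstimulated populations 4 of 8 were higher in KLF2+ cells and 1 lower, beside 1.07% and 1.25% of all genes, and the median over the list was 1.20 in log2. The summed myeloid markers differed between the same libraries, at 1010 and 1812 CPM against 84.5 and 88.6 CPM, and their part in this was not tested. Itgb7, an integrin chain of gut homing, was higher by 1.57 ± 0.23 (SE, edgeR adjusted p = 0.00921), and S1pr1, the egress receptor, by 2.27 ± 0.47 (adjusted p = 0.0368). S1pr4 was higher by 1.39 ± 0.28 (SE, edgeR adjusted p = 0.0359), and Ccr7, the lymph node chemokine receptor, was lower (-1.51 ± 0.29, SE; adjusted p = 0.0261). After background subtraction 3 of 8 were higher and 2 lower, where 4.02% of all genes were called. Itgb7 and Ccr7 were then called in the same direction, while S1pr1 (1.93, edgeR adjusted p = 0.0957) and S1pr4 (1.11, adjusted p = 0.110) were not.

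In the KLF2+ response 5 of these 8 fell and 1 rose, beside 17.4% and 19.7% of all genes, with a median log2 change of -1.03. S1pr1 changed by -1.85 ± 0.46 (SE, edgeR adjusted p = 0.0157), Itga4 by -1.73 ± 0.26 (adjusted p = 0.00240), S1pr4 by -1.52 ± 0.28 (0.00518) and Itgb7 by -1.06 ± 0.23 (0.00932). Cdkn1a, which encodes the cell cycle inhibitor p21, rose by 2.39 ± 0.45 (SE, edgeR adjusted p = 0.00519). After background subtraction 7 of the 8 fell and Cdkn1a rose, beside 16.4% and 12.7% of all genes. In the KLF2- response none of the 8 was called. Between stimulated populations 4 of 8 were higher in KLF2+ cells and 1 lower by default, beside 35.5% and 39.7% of all genes, with Selplg at 1.44 ± 0.28 and Itgb7 at 1.03 ± 0.23 in log2 (SE) and Ccr7 at -1.07 ± 0.28. After background subtraction, where 16.0% and 38.6% of all genes were higher and lower, 0 were higher and 3 lower (Ccr7 at -2.39, Itga4 at -1.87 and S1pr4 at -1.21), so Ccr7 was the only gene of the list called in both fits.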

How the data were processed

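RNA of the 8 libraries was sequenced by the authors from FOXP3-negative CD44-high CD4 T cells. Per the submitters' processing notes, reads were handled with STAR 2.7.9, SAMtools, HOMER 4.11 and DESeq2 on mm10 (GRCm38). The deposited estimated counts, per the file headers, are HOMER exon counts per gene with no adjustment, whole or in steps of 0.5, and were rounded here. The deposited TPM values, per the file headers from the same program, sum to 503794 to 523430 per library, so they compare as given but fall short of the nominal total. The labels name polyA RNA and a low-input stranded kit.

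Differences were tested in edgeR 4.0.16 (R 4.3.3): genes passing filterByExpr (19146 of 25124, all 9 members among them), trimmed mean of M values (TMM) scaling, the quasi-likelihood F test on all 4 groups with 4 residual degrees of freedom, and Benjamini-Hochberg adjustment over all tested genes at 0.05. Standard errors come from the fold change and the root of F. Background was the reads per kb over 1464 olfactory and vomeronasal receptor genes. The reads this density predicts from a gene's exonic kb were taken away before a refit of 15292 genes. That refit was also scaled on genes of at least 50 CPM, so it holds both changes at once. The other alternatives were DESeq2 1.42.0, scaling on genes of at least 50 CPM, no filter, limma 3.58.1 on log2(TPM + 1) and log2(TPM + 0.1), only the groups compared, each library left out, and a replicate block. The test was run on simulated data for the KLF2+ response over 18396 genes, where it recovered 76% of genes changed 4-fold and 5% of those changed 2-fold, with 2 false calls. Those data held 100 genes changed at each fold, as many up as down and none of low counts. All genes had the same relative spread and no background was added, so the run does not bear on the scaling or the background. Members and lists were chosen with earlier results of these data known. All 9 members are named in each comparison; from each other list up to 4 called genes with the smallest p are named, and S1pr1, Foxo1 and genes named for their background-subtracted values were added after their values were seen. Some listed genes are counted in their lists but not reported here by name. Likeness is Pearson's r of log2 CPM over 8 libraries for genes averaging 10 CPM or more. Depth is given in the report; TPM values alone keep no depth.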

Additional observations from a re-analysis of the deposited data

Results flagged for a closer look

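The responses of the 2 populations differed, by the edgeR interaction test (Benjamini-Hochberg), for 3 of 9 members, 2 of 13 other family genes, 2 of 11 upstream genes, 3 of 8 KLF2-linked genes and 4 of 10 co-regulators, 14 genes in all, where 35.8% of all genes were called; the counts are no result about these lists. All values are log2 differences, the KLF2+ response minus the KLF2- response. Of the members, Klf2 stood at -1.75 and Klf3 at -0.92, and Klf10 at 0.94, a value that scaling on abundant genes brought to 0.07. The Klf2 value holds the unstimulated levels, which the sort set apart. Of the family's other genes, Klf11 stood at -1.52 and Klf1 at 3.74. Among the upstream genes, the kinases Map2k5 (1.05) and Mapk7 (1.11) differed, both of which had negative values in KLF2- cells. Among the KLF2-linked genes, Cdkn1a stood at 2.82, Itga4 at -1.48 and S1pr4 at -1.35. Of the co-regulators, Hdac1 (1.75), Hdac2 (1.69) and Sin3b (1.32) stood higher and Ctbp2 (-1.86) lower. After background subtraction Klf2, Klf3, Klf11, Itga4, S1pr4 and Hdac1 were again called in the same direction and the other 8 of the 14 were not, with Map2k5 at 0.23 and Mapk7 at 0.48. Groups of 2 libraries allow no check for single libraries that stand apart.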

How the results depend on the processing

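Across 23 pairs of a member and a comparison that edgeR or an alternative called, 375 values under alternatives gave 262 with the same sign and call, 36 that lost and 29 that gained the call, and 48 of opposite sign; 22 further pairs were called in no fit. The cause of these changes was not tested. Counts of members called moved as follows. Between unstimulated populations, 1 became 2 with DESeq2, without the filter and with only the groups compared. Of all genes, 444 of 19146 became 1148 of 19146, 657 of 24382 and 828 of 17620 in that order. With 1 library left out, Klf2 ranged from 2.39 to 3.06 and Klf3 from 0.74 to 1.25. Their calls changed with the library left out. Between stimulated populations, 5 became 3 after background subtraction, where 75.2% of all genes became 54.5%. With 1 library left out, Klf2 ranged there from 0.61 to 1.32, Klf4 from -1.92 to -1.13 and Klf12 from -3.31 to -2.51. In the KLF2+ response, 3 became 6 with scaling on genes of at least 50 CPM and 5 with limma on log2(TPM + 1) and on log2(TPM + 0.1). Of all genes, 7096 of 19146 became 7834 of 19146, 4760 of 17147 and 7331 of 17147 in that order. With 1 library left out, Klf2 ranged there from -1.88 to -1.30 and Klf3 from -2.04 to -1.53. In the difference the 3 calls depended on single libraries, and the ranges with 1 library left out are given with that comparison above.

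Signs changed between stimulated populations, in the order of scaling on genes of at least 50 CPM, background subtraction, limma on log2(TPM + 1), on log2(TPM + 0.1) and on log2(TPM + 1) without a filter. Klf2 had -0.30, -0.39, -0.49, -0.50 and -0.49. Klf3 had -1.16, -1.25, -1.34, -1.37 and -1.34, and -0.13 with only the groups compared. Klf6 had -1.20, -1.31, -1.42, -1.44 and -1.42, and -0.19 with only the groups compared. Klf10 had -0.15, -0.10, -0.39, -0.41 and -0.39, and Klf13 had -0.17, -0.17 and -0.17 in the 3 limma fits. In the KLF2+ response Klf13 had -0.48, -0.49, -0.64, -0.66 and -0.64, and -0.048 with only the groups compared. In the difference Klf6 had -0.72, -0.81, -0.88, -0.90 and -0.88, and Klf10 had -0.13, -0.13 and -0.13 in the limma fits. With 1 library left out, Klf3 ranged from -0.11 to 0.25 and Klf6 from -0.13 to 0.12 between stimulated populations, Klf13 from -0.15 to 0.19 in the KLF2+ response, and Klf6 from -0.20 to 0.52 in the difference.

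Deviations from the group means of same-numbered libraries had a correlation of 0.537 for replicates 1 and 2 and 0.0865 for replicates 3 and 4. Because the second value is under 0.1 and the labels name no shared animal or sort, the numbers were not taken to pair the libraries. With a replicate block, edgeR called 1 member in the KLF2- response, Klf3 (-0.88, adjusted p = 0.0425), where 0 were called without it. Of the 19146 genes, 770 were called there with the block and 0 without it. The block gave 4 members in the KLF2+ response and 4 in the difference, where 3 were called without it. Beside these stood 10851 and 10857 of the 19146 genes, against 7096 and 6855 without the block. Depth limits Klf4 and Klf12 most, for which the expected background was 9.87% to 153% and 27.8% to 74.8% of the reads counted. The KLF2- stimulated libraries, with 4525898 and 2987038 exon reads, were the shallowest.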

Other observations

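KLF proteins act through corepressors and coactivators, and 10 genes of such partners were tested. In the KLF2+ response edgeR called 4 of 10 higher and 0 lower, beside 19.7% and 17.4% of all genes: the deacetylases Hdac2 (1.39 ± 0.29 in log2, SE; adjusted p = 0.00755), Hdac1 (1.31 ± 0.27; 0.00774) and Hdac3 (0.76 ± 0.26; 0.0453), and the scaffold Sin3b (0.74 ± 0.21; 0.0262). After background subtraction 2 were higher (Hdac1 at 0.79 and Hdac2 at 0.89) and 1 lower, beside 12.7% and 16.4% of all genes. Between stimulated populations 5 of 10 were higher in KLF2+ cells and 1 lower, beside 35.5% and 39.7% of all genes, led by Sin3b (1.73 ± 0.22, SE), Hdac1 (2.12 ± 0.28), Hdac2 (2.07 ± 0.29) and Ctbp2 (-2.85 ± 0.44). After background subtraction these 4 kept their direction and call. Over the list 3 of 10 were then higher and 4 lower, beside 16.0% and 38.6% of all genes, and the median log2 value went from 0.61 to -0.47. In the KLF2+ response Ctbp2, a corepressor of KLF3 and KLF12, had -1.10 ± 0.42 and was not called (SE, edgeR adjusted p = 0.0641). None of the 10 was called in the KLF2- response.

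Genes whose log2 CPM followed each member most closely over the 8 libraries, a description with few points that share depth and background, were Cfb (r = 0.993), Lyz2 (0.986) and Gtf2ird2 (0.980) for Klf2, and Ccpg1 (0.988), Kdm3a (0.986) and Pik3ip1 (0.984) for Klf3. Lyz2 is itself a myeloid marker, listed at 806 and 1142 TPM in the KLF2+ unstimulated libraries. Klf6 went with Zfyve27 (0.957), Tspyl2 (0.952) and Nrip1 (0.937), Klf10 with Cenpp (0.986), Cinp (0.985) and Myef2 (0.985), and Klf9 with Skil (0.979), Zfp512b (0.974) and Mir155hg (0.973). Klf7 went with Zbtb24 (0.977), Rhoh (0.974) and Miip (0.971), Klf12 with Sema3e (0.998), Xrn1 (0.996) and Adora1 (0.990), and Klf13 with Daxx (0.993), Trpv2 (0.991) and Rgs19 (0.989). Klf4 was below the level at which such genes were sought. Within the family, Klf2 had r = 0.698 with Klf3 and -0.946 with Klf9 over the 8 libraries, and Klf12 had -0.83 with Klf13.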
